A study of Ursus arctos with 5 samples.

Results

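Messenger RNAs of nuclear receptors, circadian clock genes and transcriptional coregulators were compared between hibernating and active gastrocnemius, a calf muscle, of 2 grizzly bears (Ursus arctos). The transcripts were chosen by gene name: nuclear receptors of the NR, ROR, RXR, RAR, PPAR, ESRR and THR families, the clock genes PER, CRY, CLOCK, ARNTL, DBP, TEF, BHLHE40 and BHLHE41, the coregulators NCOA and NCOR with the PPARGC1 coactivators, and the numbered subunits of Mediator. This gave 82 of the 9093 assembled transcripts that carry a human gene name, and 42 of 4873 named genes, in a table of 26614 transcripts. Both bears, called the subadult and the adult in the study, were captive. Each was biopsied under anesthesia in October, as non-hibernating (active), and in February, as hibernating, after feeding had stopped in November. Single-end Illumina sequencing of poly(A) RNA gave 1 library per bear and state, so 4 libraries in all, with n = 2 bears per state and no second library of a bear in a state. The labels give a stage of adult (10 years) throughout and keep both bears in 1 sample per state, so that the bears are told apart by the column names of the table and the age classes by the study's supplementary table, in which all 82 transcripts carry the same 4 values. The dose of anesthetic differed between the states, and the hour of the biopsies is not given in the sources used here. Month, feeding, anesthetic dose and hibernation therefore cannot be told apart in any difference between the states.

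Nuclear receptors are transcription factors that bind hormones, lipids or heme, or have no known ligand, and switch between coactivators and corepressors on the genes they occupy. The circadian clock is a feedback loop in which CLOCK and ARNTL (BMAL1) drive PER and CRY genes, whose proteins repress that drive, while ROR receptors activate and REV-ERB receptors repress ARNTL. Mediator is the large complex that carries signals from such factors to RNA polymerase II. In skeletal muscle these genes are known for daily rhythms of fuel use and for adjusting fat and glucose oxidation to feeding and activity.

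Levels are RPKM, reads per kilobase of transcript and per M (mega) aligned reads, as the authors deposited them. A change is the hibernating level less the active level, both as log2(RPKM + 0.5), per bear or as the mean of both bears, a scale that understates changes of low transcripts. Standard errors (SE) and adjusted p-values are those of limma with Benjamini-Hochberg adjustment over the 9093 named transcripts. A score after the description of NOISeq, the method of the study, compared each transcript with 53228 differences of the same state between bears, as the share that it equalled or exceeded in ratio and in size, with 0.8 as its threshold. States were called not overlapping where both hibernating libraries lay on the same side of both active libraries, which is a description, since an exact permutation test of 2 against 2 libraries cannot give a two-sided p below 0.333. For a gene with several transcripts, the one with the most reads is given unless another is named.

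The libraries held 44.7 to 54.2 M aligned reads, of which the 82 transcripts took 0.155% to 0.200%, and at least 36 reads stood behind each of their values. Of 10 fixed skeletal muscle markers, 4 were found (MYH1, MYH2, MYH7 and TNNC2), each at 1198 RPKM or more in every library. Among markers of other cells, 1 of 6 for fat cells (LPL), 3 of 6 for connective tissue, 1 of 5 for endothelium and 0 of 6 for blood were found. The active subadult library stood apart in some of these and in lipid genes: COL1A1, a collagen, was at 193 RPKM there and at 6.79 to 10.95 in the other libraries, FASN, the fatty acid synthase, at 113 against 2.96 to 5.79, and PDK4, which shuts pyruvate out of the citrate cycle, at 580 against 40.2 to 173. The other collagens on the list did not follow COL1A1: COL3A1 was at 254 and 116 RPKM in the hibernating and active subadult and at 209.8 and 136 in the adult, and COL1A2 was also higher in hibernation in both bears. The summed level of the 3 connective tissue genes was 269 and 223 RPKM in the hibernating subadult and adult and 312 and 146 in the active ones, and LPL was at 63.4 and 19.8 against 120.3 and 18.8. The part of these differences in the results below was not tested, and values without the active subadult library are given beside the counts.

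RORA, the retinoic acid receptor-related orphan receptor alpha, an activator of ARNTL, was the single gene of the 42 whose score passed 0.8, and it was lower in hibernation in both bears. DBP, a clock output factor of the PAR bZIP family, was higher in both by more than 1.5-fold, with a score of 0.794 just under the threshold. PER1 and CRY2 also lay lower, and BHLHE40, RARA, RXRB, THRA, NCOA4, PPARGC1B, MED4 and MED25 higher, in both hibernating than in both active libraries, without passing either test. In such bulk tissue, less RNA of a gene per cell and fewer cells that hold it cannot be told apart. With limma, 0 of the 82 transcripts had an adjusted p under 0.05, beside 0% of all named transcripts, and their adjusted p-values lay between 0.541 and 0.999. An unadjusted limma p under 0.05 was reached by 9 of the 82 (8 higher and 1 lower), or 10.98%, beside 9.08% of all named transcripts, and the lower 1 was RORA. The score passed for 0 transcripts higher in hibernation, where 2.1% of all named transcripts passed, and for 1 that was lower, where 1.51% did. Without the active subadult library the score passed for 0 of the 82, beside 2.89% of all named transcripts.

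States did not overlap for 29 of the 82 transcripts on the higher side (35.4%), beside 34.6% of all named transcripts. On the lower side they did not overlap for 10 (12.2%), beside 8.8%. By gene, 16 of 42 were higher without overlap, 3 were lower (RORA, CRY2 and PER1), and 23 overlapped. These are 38.1% higher and 7.14% lower, beside 35.8% and 8.11% of all 4873 genes, so both shares are near that background. Without the active subadult library, a comparison added after the data were seen, 39 of the 82 lay above and 22 below the active adult in both hibernating libraries, or 47.6% and 26.8%, beside 52.6% and 18.9% of all named transcripts. In both bears alike, a change of 1.5-fold or more was met by 6 transcripts on the higher side, 7.32% beside 4.88% of all named transcripts, and these were DBP, both transcripts of MED4, MED25 (isotig21332 and isotig23836) and NR1H2 (isotig25321). On the lower side 1 transcript met it, RORA (isotig28400), 1.22% beside 1.42%. With 82 transcripts that in part share reads, none of these shares was tested against that of all named transcripts.

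The median log2 change over the 42 genes was 0.21 (subadult 0.25, adult 0.16), beside 0.15 over all 4873 genes (0.13 and 0.17). Rescaling the libraries by the median ratio moved the subadult's changes by -0.11 and the adult's by -0.22, and rescaling by the upper quartile by -0.19 and -0.22. The split of transcripts without overlap then turned from 29 higher and 10 lower to 17 higher and 19 lower by the median ratio, where 18.99% and 18.1% of all named transcripts did so, and to 16 and 19 by the upper quartile, where 17.1% and 20.5% did. By gene, BHLHE40, DBP, MED25, MED4, NCOA4, NCOA5, PPARGC1B, RARA and RXRB stayed higher without overlap under both, and CRY2, PER1 and RORA stayed lower, joined by MED19, NR0B1 and RARB. Relative to the median change of all genes in each bear, 22 of the 82 transcripts lay above it in both bears (26.8%, beside 29.1% of all named transcripts) and 27 below it in both (32.9%, beside 33.7%).

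**Figure D1:**
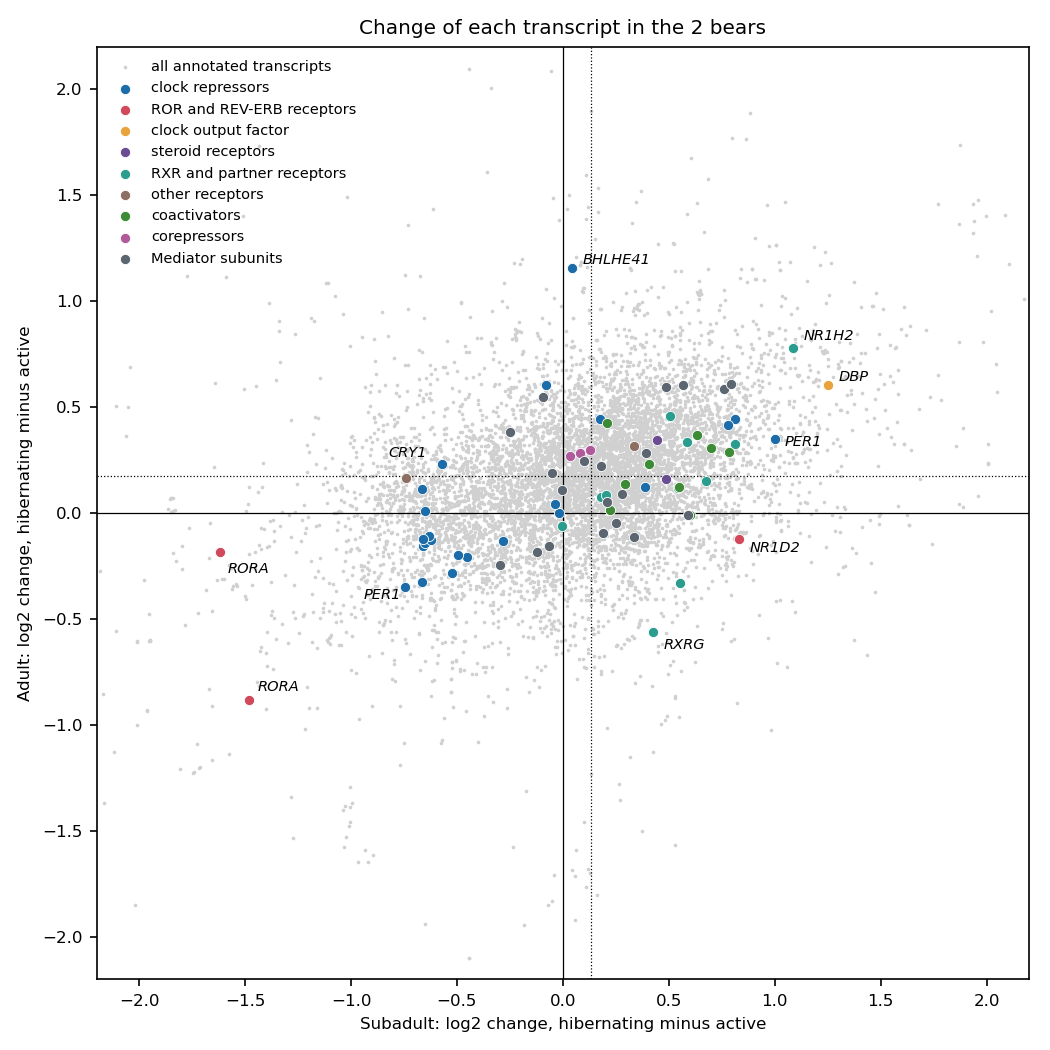
Log2 change, hibernating minus active, of each transcript in the subadult (x) and the adult (y), for all named transcripts in grey and 75 of the 82 transcripts in colour by role. Solid lines mark no change and dotted lines the median change of all genes in each bear (0.13 and 0.17), and 48 named transcripts lie outside the plotted range. RORA sits at the lower left and DBP and NR1H2 (isotig25321) at the upper right.

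Among the activating and repressing receptors of the clock, RORA (isotig28400, 1015 bases) was at 2.44 and 7.71 RPKM in the hibernating and active subadult and at 1.78 and 3.70 in the adult. Both hibernating libraries lay below both active ones, and the active subadult was the highest of the 4. Its log2 change was -1.18 (SE 0.37), with -1.48 for the subadult and -0.88 for the adult, a limma adjusted p of 0.541 and a score of 0.848. Without the active subadult library it was -0.70, and without the active adult -1.66. At least 98 reads stood behind each of its values. The second RORA transcript (isotig40700, 493 bases) was at 1.62 and 6.02 RPKM in the hibernating and active subadult and at 1.46 and 1.73 in the adult, so that its states did not overlap either, but its adult values were close. RORA is also the member that the study followed up outside these libraries. That choice was made in part on them, by comparison with atrophy-related datasets of mice and humans. NR1D2, the REV-ERB beta receptor, a heme-binding repressor that competes with RORs, was at 19.1 and 10.5 RPKM in the subadult and at 12.1 and 13.2 in the adult. Its level was higher in hibernation in the subadult alone, and the adult lay between.

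In the repressor arm of the clock, 2 of 7 genes were higher and 2 lower in hibernation without overlap. Of all genes, 35.8% were higher and 8.11% lower in this way. None of the 7 passed the tests, with the highest score at 0.738. PER1, a period protein that responds quickly to hormones and light, was at 17.3 and 27.8 RPKM in the hibernating and active subadult and at 24.8 and 31.2 in the adult (contig04575, log2 change -0.50, SE 0.25, limma adjusted p = 0.599). In this contig the hibernating libraries were the lower in both bears, more so in the subadult, and the log2 change was -0.25 without the hibernating subadult and -0.75 without the hibernating adult. The other 4 PER1 transcripts overlapped or lay higher, and the mean over all 5 was -0.16. PER2 was at 3.45 and 3.00 RPKM in the subadult and at 8.03 and 5.76 in the adult. The adult stood above the subadult in both states, and this gap was larger than either bear's own change. PER3 was at 8.82 and 9.35 RPKM in the subadult and at 15.6 and 10.1 in the adult. A single library, the hibernating adult, stood out.

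CRY2, a cryptochrome that represses CLOCK and ARNTL together with PER proteins, was at 5.39 and 8.82 RPKM in the hibernating and active subadult and at 8.49 and 9.51 in the adult. Its states did not overlap, with the hibernating subadult lowest and the adult values close (log2 change -0.41, SE 0.27, and -0.10 without the hibernating subadult). CRY1 was at 3.90 and 6.04 RPKM in the subadult and at 4.29 and 3.58 in the adult. The active subadult was the highest and the bears went in opposite directions. BHLHE40 (DEC1), a basic helix-loop-helix repressor of clock output, was at 31.0 and 17.5 RPKM in the subadult and at 29.7 and 21.7 in the adult. Both hibernating libraries stood above both active ones, and the log2 change was 0.63 (SE 0.22, limma adjusted p = 0.549). BHLHE41 (DEC2), its paralog, was at 1.43 and 1.38 RPKM in the subadult and at 2.93 and 1.04 in the adult. Here the hibernating adult alone stood out, at levels close to the limit of 1 RPKM that every listed transcript meets, and rescaling brought the states to overlap. The second BHLHE41 transcript (isotig34103) went the other way, at 1.10 and 1.69 RPKM in the hibernating and active subadult and at 2.46 and 2.92 in the adult (log2 change -0.33).

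DBP, which binds D-box elements and is a direct target of CLOCK and ARNTL, was at 7.92 and 3.04 RPKM in the hibernating and active subadult and at 7.49 and 4.75 in the adult. The hibernating values were alike and both above both active ones, and the hibernating level was 2.61-fold the active in the subadult and 1.58-fold in the adult. Its log2 change of 0.93 (SE 0.27, limma adjusted p = 0.541) was the largest of the 42 genes on the higher side, and at least 143 reads stood behind each value. The score, 0.794 with noise from all transcripts, passed 0.8 when the noise came from the named transcripts alone.

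**Figure D2:**
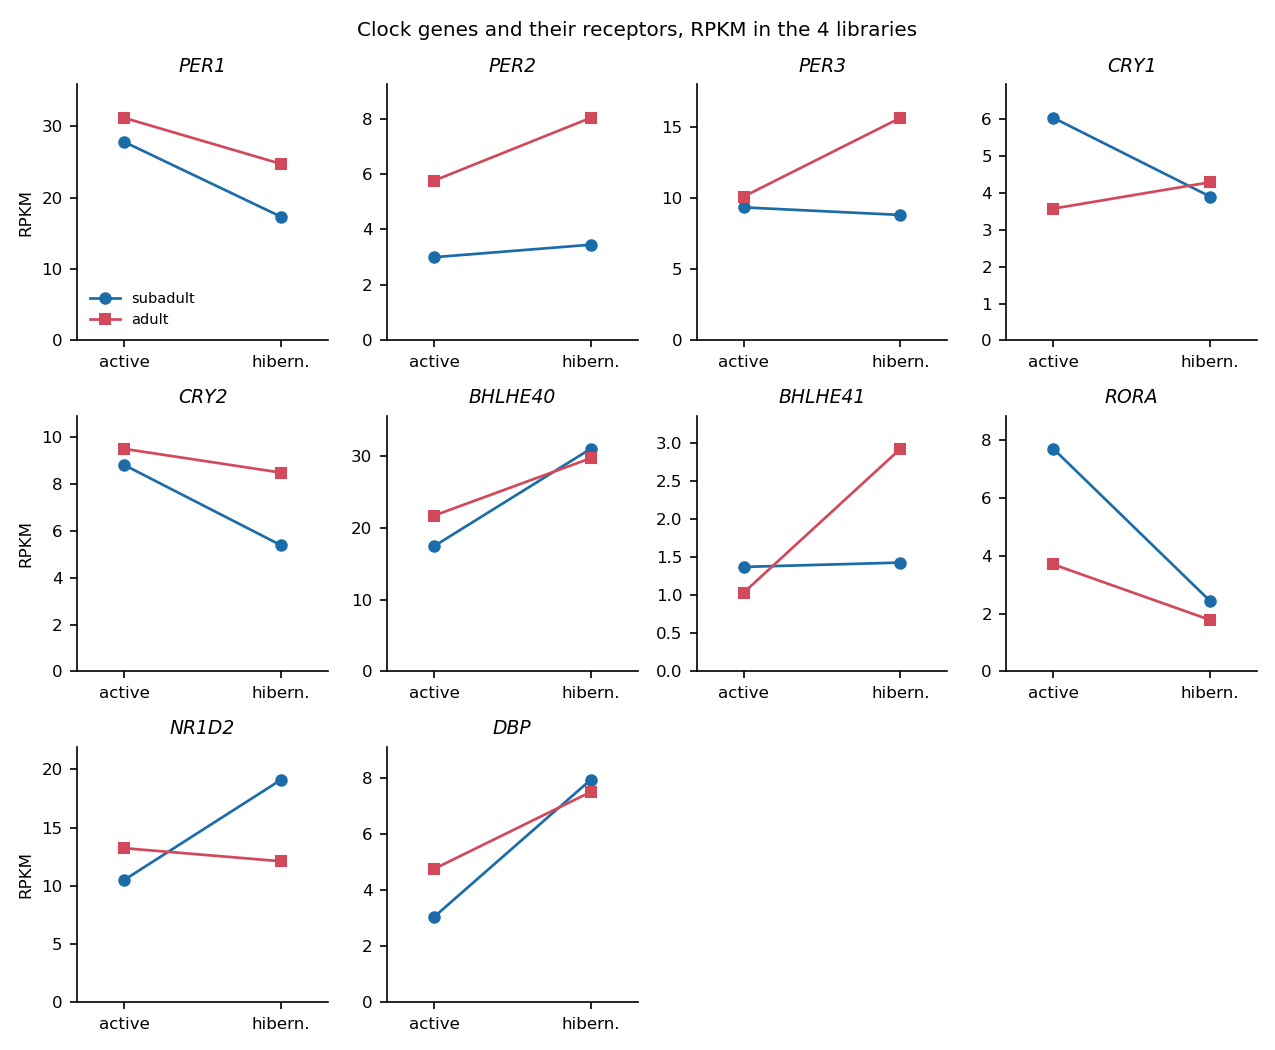
RPKM of the 7 clock repressors, RORA, NR1D2 and DBP in the active and hibernating library (x) of the subadult (circles) and the adult (squares), 1 library per point, each panel on its own axis from 0. Both lines go down for PER1, CRY2 and RORA and up for BHLHE40, BHLHE41, PER2 and DBP. They go opposite ways for CRY1, PER3 and NR1D2.

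Over the 4 libraries, the genes whose log2 levels followed RORA most closely were CRY1 (Pearson r 0.70), MED13 (0.55) and PER1 (0.48). These are descriptions over 4 points that share bears and libraries, and CRY1 and RORA were both highest in the active subadult.

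The steroid receptors were higher in hibernation within each bear but overlapped between bears. NR3C1, the glucocorticoid receptor, was at 14.0 and 10.1 RPKM in the hibernating and active subadult and at 10.0 and 7.79 in the adult. The hibernating adult thus lay just under the active subadult, and the log2 change was 0.39 (SE 0.26). NR3C2, the mineralocorticoid receptor, was at 3.66 and 2.47 RPKM in the subadult and at 1.62 and 1.40 in the adult. Both subadult libraries were above both adult ones.

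Of the 6 retinoid X receptors and partner receptors, RARA, RXRB and THRA were higher in hibernation without overlap, and 0 were lower. Of all genes, 35.8% were higher and 8.11% lower in this way. After either rescaling THRA overlapped and RARB was lower without overlap. Of all genes, 18.4% to 20.4% were then higher and 17.1% to 19.6% lower. No score of a transcript of the 6 exceeded 0.798. RXRB, a retinoid X receptor that pairs with many other nuclear receptors, was at 10.6 and 7.31 RPKM in the hibernating and active subadult and at 9.98 and 7.13 in the adult. The bears were nearly alike in each state, and the log2 change was 0.48 (SE 0.20, limma adjusted p = 0.565). RXRG, a retinoid X receptor expressed in muscle, was at 13.5 and 9.93 RPKM in the subadult and at 13.4 and 20.0 in the adult. Its hibernating levels matched while the active bears differed in opposite directions from them. RARA, the retinoic acid receptor alpha, was at 5.62 and 2.99 RPKM in the subadult and at 4.29 and 3.32 in the adult. The hibernating libraries were the higher, and the log2 change of 0.57 (SE 0.24, limma adjusted p = 0.564) was the largest of the 13 nuclear receptors on the higher side. RARB was at 5.90 and 5.92 RPKM in the subadult and at 6.35 and 6.65 in the adult, with less than 5% between the states in either bear.

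THRA, the thyroid hormone receptor alpha, was at 30.8 and 19.1 RPKM in the subadult and at 32.0 and 28.7 in the adult. The active subadult was the low library and the other 3 were close. THRA lies beside NR1D1 in mammals, their ends overlapping on opposite strands, and the strand of the reads is not given, so reads of that overlap could not be assigned here. NR1H2, the liver X receptor beta, a sensor of oxysterols, was at 16.9 and 14.9 RPKM in the subadult and at 21.6 and 20.4 in the adult. Levels followed the bear more than the state. Another NR1H2 transcript, isotig25321 of 1450 bases, was at 6.87 and 2.97 RPKM in the hibernating and active subadult and at 9.63 and 5.41 in the adult. Its log2 change was 0.93 (SE 0.34, limma adjusted p = 0.549) with a score of 0.798. Each bear had more of it in hibernation by at least 1.5-fold, whereas the other 2 NR1H2 transcripts changed by 0.13 and 0.14. NR0B1 (DAX1), a receptor without a DNA-binding domain that represses others, was at 1.61 and 3.03 RPKM in the subadult and at 2.78 and 2.43 in the adult. Its single short transcript had as few as 38 reads and the bears went in opposite directions. NR2C1 (TR2), an orphan receptor, was at 5.97 and 4.63 RPKM in the subadult and at 4.24 and 3.30 in the adult, higher in hibernation within each bear at a similar ratio (1.29 and 1.28).

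Among the coactivators, 5 of 6 were higher in hibernation without overlap and 0 lower, beside 35.8% and 8.11% of all genes, of which NCOA4, NCOA5 and PPARGC1B remained so under both rescalings, while the mean change of NCOA2 turned below 0. After rescaling 18.4% to 20.4% of all genes were higher without overlap. No coactivator passed the tests (highest score 0.687), and the median change was 0.31. NCOA4, which also carries ferritin to the lysosome, was by far the most abundant per length of the 42 genes, at 194 and 119.5 RPKM in the hibernating and active subadult and at 152 and 122 in the adult. The active libraries were almost equal and both hibernating ones above them (log2 change 0.50, SE 0.24, limma adjusted p = 0.587). PPARGC1B (PGC-1 beta), a coactivator of estrogen-related receptors and mitochondrial genes, was at 2.81 and 1.42 RPKM in the subadult and at 2.11 and 1.63 in the adult, with a log2 change of 0.54 (SE 0.22, limma adjusted p = 0.549). Its second transcript also had both hibernating values above both active ones, 2.89 and 1.82 in the subadult and 2.301 and 2.08 in the adult.

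NCOA2 (TIF2), a p160 steroid receptor coactivator, was at 4.69 and 3.95 RPKM in the hibernating and active subadult and at 4.67 and 4.62 in the adult. The low library was the active subadult. NCOA3, its p160 relative, was at 6.50 and 4.12 RPKM in the subadult and at 3.58 and 3.61 in the adult. Only the hibernating subadult stood out in this transcript, while isotig23654 and isotig29336 of the same gene were higher in hibernation in both bears. NCOA5 was at 4.34 and 3.69 RPKM in the subadult and at 4.77 and 3.43 in the adult, and NCOA6, a coactivator within histone methyltransferase complexes, at 3.38 and 2.67 and at 3.12 and 2.79. In both genes the hibernating libraries were the higher by modest ratios, 1.12 to 1.39.

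NCOR1, the scaffold of the HDAC3 corepressor complex, was at 6.13 and 5.75 RPKM in the subadult and at 6.398 and 5.17 in the adult. Its states did not overlap, its change (0.18) was near the median of all genes, and with the upper-quartile scaling it turned below 0.

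**Figure D3:**
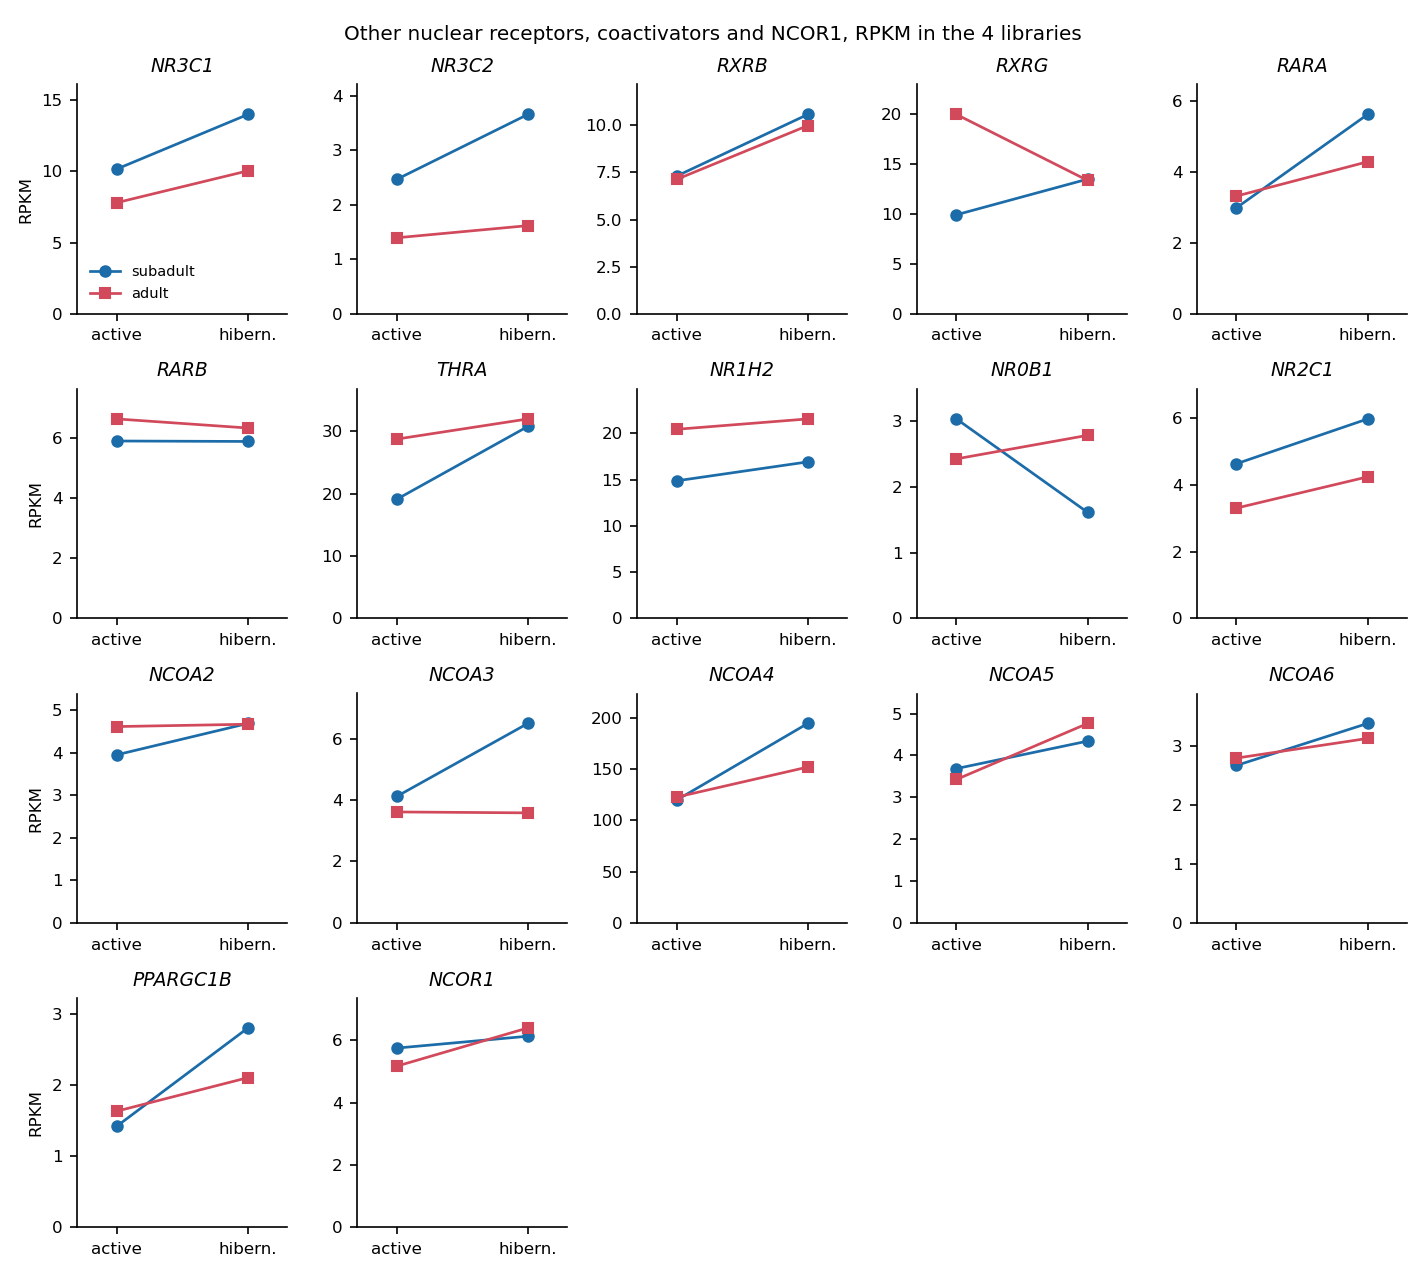
RPKM of the other nuclear receptors, the coactivators and NCOR1 in the active and hibernating library (x) of the subadult (circles) and the adult (squares), 1 library per point, each panel on its own axis from 0. Both lines go up for RXRB, RARA, NCOA4 and PPARGC1B, the bears stand apart in NR3C2, and the lines go opposite ways for RXRG and NR0B1.

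Of the 13 Mediator genes found, 4 (MED4, MED12, MED17 and MED25) were higher in hibernation without overlap (beside 35.8% of all genes, so a smaller share) and 0 lower, whereas after either rescaling MED4 and MED25 alone stayed higher, MED17 turned below 0 and MED19 lay lower without overlap. Their median change was 0.17, near that of all genes, and 7 were higher in both bears, 1 lower in both and 5 opposite. MED4, a subunit of the middle module, was at 4.36 and 2.37 RPKM in the hibernating and active subadult and at 3.90 and 2.43 in the adult. The bears differed by less than 0.5 RPKM in each state, and the log2 change was 0.67 (SE 0.22, limma adjusted p = 0.541, score 0.649). Its second transcript was at 4.89 and 2.61 RPKM in the subadult and at 4.24 and 2.61 in the adult, and the pair may share reads.

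MED25, the subunit contacted by the retinoic acid receptor and other activators, was at 6.93 and 4.51 RPKM in the subadult and at 7.61 and 4.84 in the adult, with a log2 change of 0.59 (SE 0.21, limma adjusted p = 0.549). The hibernating values exceeded the active ones 1.54-fold and 1.57-fold, and isotig23836 of the same gene, at 2.74 and 1.82 in the subadult and 4.39 and 2.74 in the adult, did so 1.51-fold and 1.60-fold. The other 3 transcripts of MED25 were not higher in both bears. MED13L, of the kinase module, was at 6.35 and 4.73 RPKM in the subadult and at 4.30 and 3.44 in the adult, higher in hibernation within each bear but overlapping between bears. The lowest changes were those of MED13 (5.40 and 5.67 RPKM in the subadult, 2.19 and 2.49 in the adult), MED26 (42.3 and 37.01, 52.5 and 56.0) and MED19 (2.24 and 2.25, 2.32 and 2.11). In MED13 the subadult had more than the adult in both states, and MED26 was the most abundant of the Mediator genes per length. MED1, the subunit that docks nuclear receptors, was at 5.97 and 3.79 RPKM in the subadult and at 3.88 and 3.91 in the adult, the hibernating subadult alone being high. The 6 Mediator genes not given by library (MED6, MED11, MED12, MED16, MED17 and MED23) changed by 0.07 to 0.20.

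**Figure D4:**
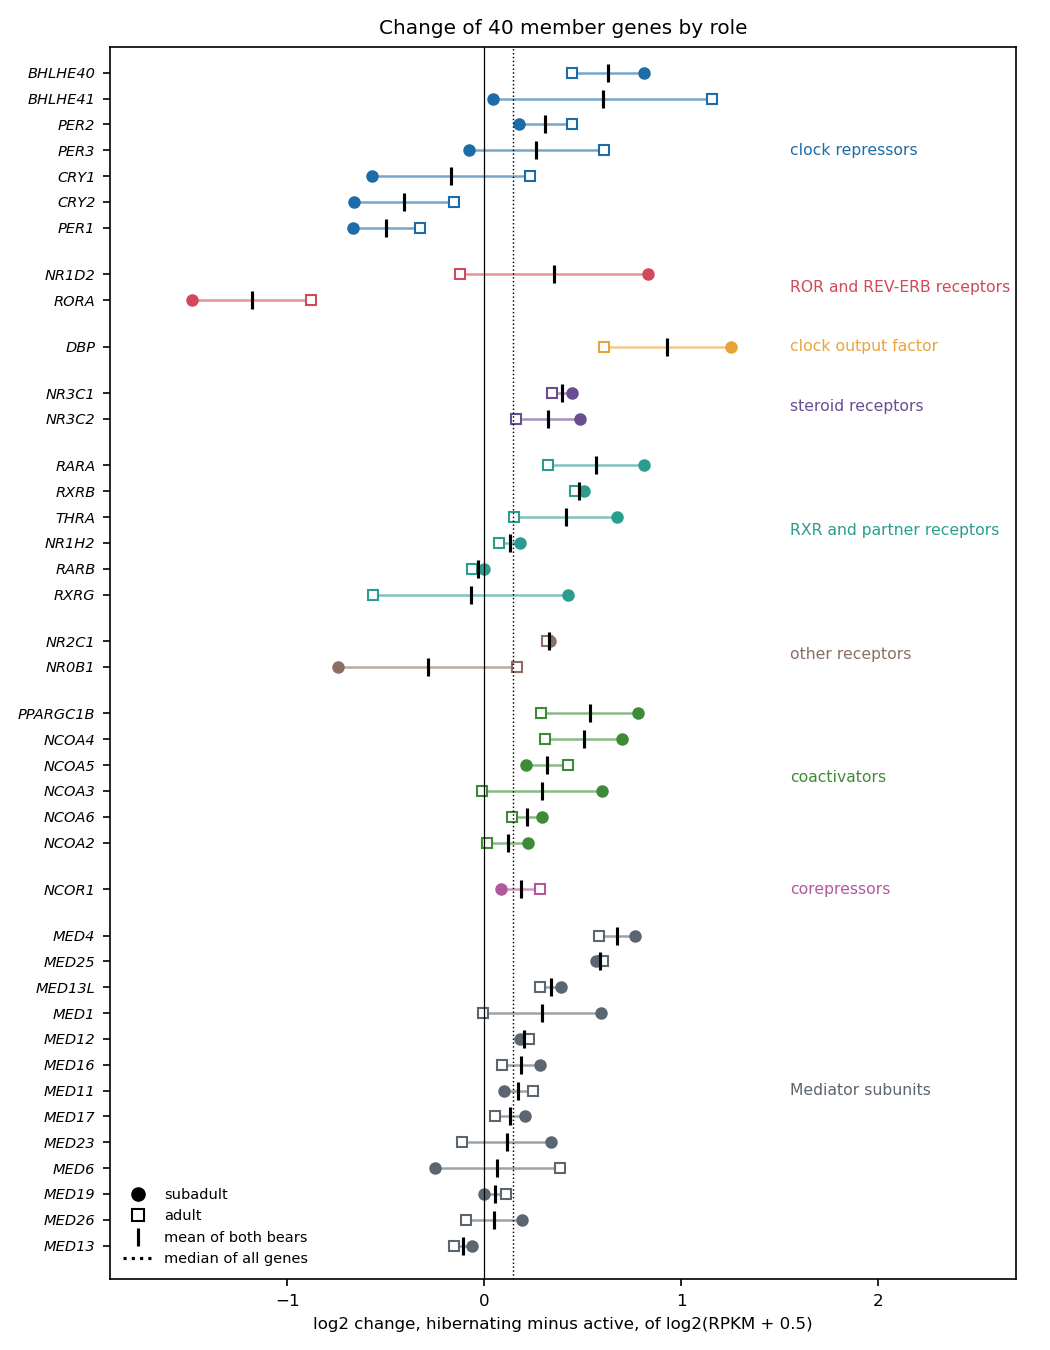
Log2 change, hibernating minus active (x), of 40 of the 42 genes by role, each by its transcript with the most reads, with the subadult as filled circles, the adult as open squares and their mean as a bar. The dotted line marks the median change of all genes, 0.15. RORA is farthest to the left (-1.18) and DBP farthest to the right (0.93). Among the genes without overlap, the sign of NCOA2, NCOR1 and MED17 depends on the scaling of the libraries. Some overlapping genes near 0, such as MED19 and MED26, also turned below 0 after either rescaling.

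Of the 42 genes, 19 had more than 1 transcript, and in 14 of those all transcripts had the same sign of mean change. All 9 CRY2 transcripts were lower in hibernation on average (log2 changes -0.55 to -0.01), but 8 of them carry consecutive names and likely share sequence, so they are not separate measurements. PER1 split: its 4 contigs had changes of -0.50 to -0.28, while isotig32783 of 716 bases was at 4.43 and 1.97 RPKM in the hibernating and active subadult and at 2.68 and 2.00 in the adult (log2 change 0.67, SE 0.28, limma adjusted p = 0.553). That transcript was higher in both bears, whereas the 4 contigs were lower in the subadult and, in the adult, ran from 0.79-fold to 1.08-fold. BHLHE41, MED16, MED25 and RXRG were the other genes with transcripts on both sides of 0. The sources used here do not say how reads matching more than 1 transcript were counted, so changes of single transcripts of these genes are uncertain.

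**Figure D5:**
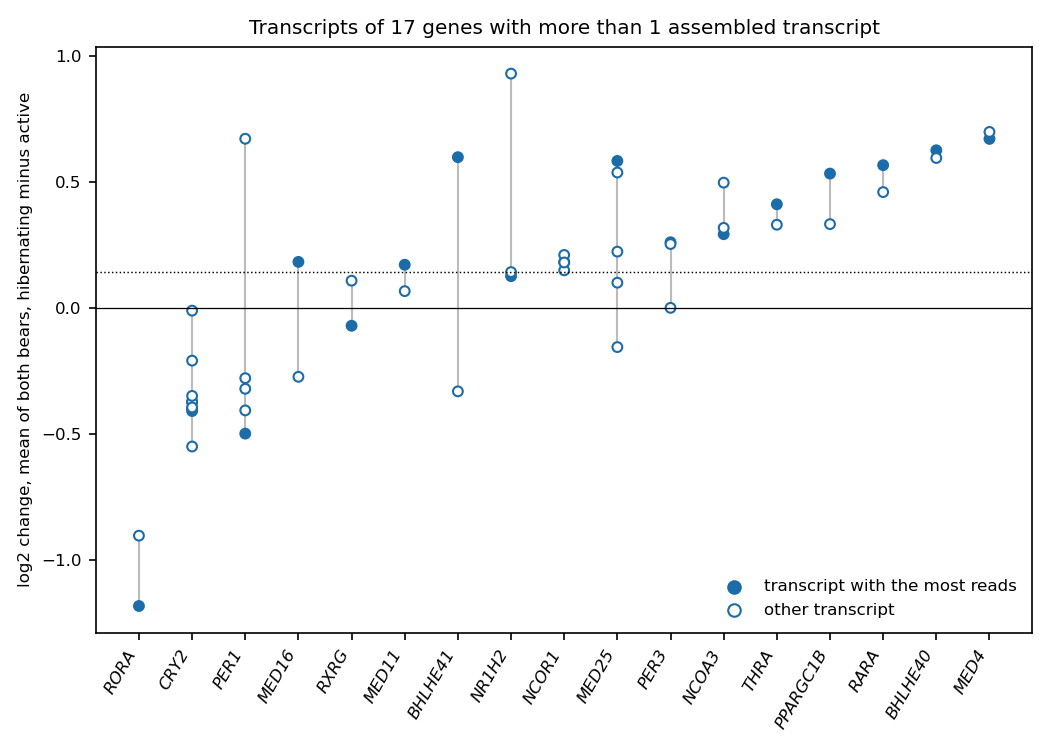
Mean log2 change of both bears, hibernating minus active (y), for every transcript of 17 of the 19 genes with more than 1 (x), ordered by their median, with the transcript with the most reads filled. PER1 spans -0.50 to 0.67 and NR1H2 0.13 to 0.93, whereas the transcripts of NCOR1, BHLHE40 and MED4 lie close together.

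Fixed lists of partner and target genes outside the 42 gave the surroundings. None of their genes had an adjusted limma p under 0.05. Of 24 clock modifiers (kinases, ubiquitin ligases and related factors) 15 were found, 2 higher without overlap (CUL1, a cullin scaffold, and GSK3B, a kinase that phosphorylates clock proteins) and 0 lower, with a median change of 0.08, while after either rescaling NFIL3 lay lower without overlap and the median was below 0. NFIL3 (E4BP4), which represses through the D-box that DBP activates and is itself under ROR and REV-ERB control, was at 7.89 and 21.6 RPKM in the hibernating and active subadult and at 4.85 and 7.39 in the adult. It was lower in hibernation within each bear, with a score of 0.886 and a log2 change of -0.98 (limma adjusted p = 0.610), though the hibernating subadult lay above the active adult. HLF, the relative of DBP, was at 4.75 and 4.71 RPKM in the subadult and at 7.59 and 7.29 in the adult, level between the states.

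Of 17 coregulator partners 12 were found, 7 higher without overlap (3 after either rescaling: PRMT1, SIN3A and SIRT1) and 1 lower, with a median change of 0.25. The shares of all genes were 35.8% higher and 8.11% lower as deposited. After rescaling they were 18.4% to 20.4% higher and 17.1% to 19.6% lower. SIN3A, a corepressor scaffold, was at 8.20 and 4.27 RPKM in the subadult and at 7.46 and 4.997 in the adult, and NRIP1 (RIP140), a corepressor of oxidative genes, at 5.40 and 8.59 and at 3.48 and 6.74. SIN3A was higher and NRIP1 lower in hibernation in both bears, and neither passed 0.8 (scores 0.723 and 0.733).

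Among genes known as receptor targets, 7 of 12 glucocorticoid receptor targets were found, 0 higher and 3 lower without overlap (FOXO1, GLUL and KLF9), with a median change of -0.33 beside 0.15 over all genes, and after either rescaling TRIM63 and ZBTB16 joined the 3. Of all genes, 8.11% were lower without overlap as deposited, and 17.1% and 19.6% after rescaling by the median ratio and the upper quartile. GLUL, glutamine synthetase, was at 25.5 and 86.8 RPKM in the subadult and at 37.6 and 88.7 in the adult, a score of 0.967 with both bears lower in hibernation. FKBP5, the chaperone that restrains the receptor, was at 2.52 and 5.62 RPKM and at 9.85 and 12.4, apart between the bears. Of 15 PPAR and ERR targets 9 were found, with 1 higher and 0 lower without overlap, beside 35.8% and 8.11% of all genes. The bears went in opposite directions for 8 of the 9, beside 35.2% of all genes, and PDK4 stood far highest in the active subadult. After either rescaling 0 were higher and PDK4 lay lower without overlap. Of 8 liver X receptor targets 4 were found: FASN and SCD, both enzymes of fatty acid synthesis, were lower and LPCAT3, a phospholipid remodelling enzyme, higher in hibernation without overlap. The shares of all genes were 8.11% lower and 35.8% higher. SCD was at 5.20 and 189 RPKM in the subadult and at 2.79 and 10.1 in the adult, so most of its difference lay in the active subadult. LPCAT3 was at 55.4 and 19.6 RPKM in the subadult and at 35.3 and 24.2 in the adult, the reverse direction to FASN and SCD.

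CLOCK, ARNTL, ARNTL2, NR1D1, RORB, TEF, PPARA, PPARD, PPARG, PPARGC1A, ESRRA, ESRRB, ESRRG, THRB, NR4A1, NR4A2, NR4A3, NR1H3, RXRA, RARG and NCOA1 are covered by the rule, but no transcript of the table carried these names, and they were not analysed here. Every listed transcript was at 1 RPKM or more in all 4 libraries, so a transcript below that level in any library could not enter the comparison.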

How the data were processed

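Total RNA of gastrocnemius biopsies was extracted with TRIzol and selected for poly(A) by the authors, who assembled transcripts de novo with Newbler 2.3 and SOAPdenovo, named them by BLAST against human proteins of Ensembl 66 and aligned the single-end reads with SOAP2 at up to 2 mismatches. Per the file headers and the paper's methods, the deposited values are RPKM with transcript lengths. How reads with several matching transcripts were counted, and whether normalization of cDNA by nuclease reached these single-end libraries, is not given in the sources used here. No value among the 26614 deposited transcripts is below an RPKM of 1. RPKM times length fell on whole reads, within 0.1 read, for 96.0% to 97.5% of low values, which gave the depth, and no count test was run. Of 5 GEO samples 2 were used, which hold the 4 columns, and the pooled and paired-end libraries were not analysed here.

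States were compared on log2(RPKM + 0.5) in R 4.3.3 by limma 3.58.1, whose prior variance followed a trend and whose p-values were adjusted after Benjamini and Hochberg over 9093 named transcripts, without the bear as a term. Since each bear gave a library per state, the bear pairs the samples, and the deviations of the bears from the state means had a Pearson r of 0.356 across named transcripts between the states. The score was written after the description of NOISeq, with noise from all transcripts. Both steps were checked on simulated data, whose changes were larger than any of the chosen transcripts and whose libraries were not paired by bear. Changes of the size found here were not checked in this way. The rule for named genes gave library values for each nuclear receptor, clock, NCOA, NCOR and PPARGC1 gene by its transcript of most reads (length times mean RPKM), each transcript with a score of 0.8 or a 1.5-fold change that both bears shared in direction, and the 3 highest and 3 lowest Mediator genes. Values of some genes that the rule covers are not reported here. MED1, the transcripts set beside these and the genes named from the lists outside them were added after their values were seen. The members and all lists were chosen with earlier results of these data known. Alternatives were the pseudocount (0.1 and 1), rescaling by the median ratio or upper quartile, a mean RPKM of at least 5, all transcripts in the fit, the prior without trend, the bear as a block, a score of 0.9, noise from named transcripts, the mean over a gene's transcripts, and each library and bear left out. A planned motif search in promoters was not run, as no promoter sequence was at hand. Further steps ran in Python 3.11.15 (pandas 2.3.3, numpy 2.4.6, matplotlib 3.10.9).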

Additional observations from a re-analysis of the deposited data

Results flagged for a closer look

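Of the 82 transcripts, 3 went in opposite directions in the bears by at least 1.2-fold each way, with 1 pair of libraries per bear, so the difference between the bears was not tested. The share of all named transcripts under this rule was not computed. Opposite directions of any size were met by 21 of the 82 (25.6%), beside 35.0% of all named transcripts. RXRG (isotig16788) had a log2 change of 0.43 in the subadult and -0.56 in the adult, a difference of -0.99 (adult minus subadult). The second RXRG transcript (isotig16789) had 0.55 and -0.33, a difference of -0.88, and may share reads with the first. MED6 (isotig28105) had -0.25 and 0.38, a difference of 0.63.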

How the results depend on the processing

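The count of transcripts with an adjusted limma p under 0.05 was 0 in every alternative run, with the lowest adjusted p between 0.143 and 0.838. The replicate block, with the bear as a term, also gave 0 (13 of 82 at an unadjusted p under 0.05, or 15.9% beside 13.5% of all named transcripts, against 9 without it) and changed no other call. The score reached 0.8 for 1 transcript in the main setting. After rescaling by the median ratio or the upper quartile it did so for 2 (both of RORA), beside 3.57% and 3.61% of all named transcripts. With noise from named transcripts 3 passed (RORA, DBP and NR1H2), beside 4.17% of all. At a threshold of 0.9 the count was 0, beside 1.08% of all. With a mean RPKM of at least 5, which removes RORA, it was also 0, beside 6.90% of the 3942 named transcripts kept. Leaving out 1 library gave 0 to 7: 0 without the active subadult (2.89% of all named transcripts), 4 without the hibernating subadult (5.10%), 7 without the hibernating adult (9.45%; DBP, NCOA4, 4 contigs of PER1 and RORA) and 4 without the active adult (4.82%), beside 3.61% of all with every library in. In these fits the library left alone in its state is assumed to vary like the other state. The 29 higher and 10 lower transcripts without overlap became 17 and 19 with median-ratio scaling, 16 and 19 with upper-quartile scaling, and 14 and 6 among the 40 with a mean RPKM of at least 5, where fewer transcripts were counted. The share of all named transcripts without overlap at that RPKM limit was not computed. Without the active subadult library 39 were higher and 22 lower, fewer values having to be passed. The median change of 0.21 became 0.063 with median-ratio and 0.029 with upper-quartile scaling, and lay between 0.16 and 0.26 with a library or bear left out. Of 19 genes without overlap, 3 changed sign: MED17 was at -0.010 with median-ratio and -0.042 with upper-quartile scaling, NCOA2 at -0.031 and -0.066, and NCOR1 at -0.0041 by the upper quartile. The cause of the other shifts was not tested. With 2 bears and a median SE of 0.26, a log2 change near the median of these genes was not detectable, and low transcripts such as BHLHE41 and NR0B1 rest on under 50 reads in some library.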
